A study of Mus musculus with 6 samples.

Results

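The suppressors of cytokine signalling (SOCS) are 8 intracellular proteins, CIS and SOCS1 to SOCS7, encoded by Cish and Socs1 to Socs7. The members were defined by gene name, not by a threshold on their values, and all 8 of 8 were found among the 24223 genes counted and passed the filter on low counts that left 13607 genes for testing. RNA-Seq had been done on CD4+ T cells of C57BL/6 mice aged 1 to 2 months, with 2 libraries for each of 3 cell types and cells pooled from lymph nodes and spleens. Naive were CD4+ CD62L+ cells taken with a magnetic kit and not cultured. Th17 and Th1 were such cells cultured for 5 days with anti-CD3 and anti-CD28. The Th17 medium held TGF-β, IL-6, IL-1β and IL-23 with antibodies to IL-4 and IFN-γ, whereas the Th1 medium held IL-12 and IL-2 with an antibody to IL-4. Activation, culture and polarizing cytokines therefore changed together between Naive and either Th group, and IL-2 was added to the Th1 medium alone.

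SOCS proteins are negative feedback inhibitors. Cytokine receptors without kinase activity of their own use Janus kinases (JAKs) to phosphorylate signal transducers and activators of transcription (STATs), and the STATs switch on several SOCS genes. Each SOCS protein carries an SH2 domain that binds phosphotyrosine and a SOCS box that recruits elongins and Cullin-5 to form a ubiquitin ligase. SOCS1 and SOCS3 also carry a short kinase inhibitory region that blocks JAKs directly. In helper T cells, SOCS1 is known as a brake on interferon-γ, SOCS3 as a brake on IL-6-type cytokines that signal through gp130 and STAT3, and CIS and SOCS2 as products of genes that STAT5 induces downstream of IL-2 and growth hormone-type receptors.

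The start regions of Cish, Socs1 and Socs3 are shown because the cytokine-responsive members carry letters that STAT dimers or interferon regulatory factors (IRFs) are known to bind, and because the values below concern these genes. Promoter sequence was found in the RefSeq table (GRCm38.p6) for 4 of the 8 members, namely Cish, Socs1, Socs3 and Socs4. Capitals mark matches, on either strand, to TTCNNNGAA, the gamma-activated sequence (GAS) that STATs bind, or to an IRF element (GAAA, any 2 bases, GAAA). Each sequence reads 5′ to 3′ along the gene's strand.
Cish, chr9:107296654-107296683, plus strand: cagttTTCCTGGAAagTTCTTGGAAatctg
Socs3, chr11:117969367-117969616, minus strand: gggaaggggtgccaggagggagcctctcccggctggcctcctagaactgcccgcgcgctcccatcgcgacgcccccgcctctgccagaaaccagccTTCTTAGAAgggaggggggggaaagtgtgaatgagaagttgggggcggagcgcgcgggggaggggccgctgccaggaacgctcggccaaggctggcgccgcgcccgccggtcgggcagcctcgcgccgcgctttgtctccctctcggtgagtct
Socs1, chr16:10785537-10785786, minus strand: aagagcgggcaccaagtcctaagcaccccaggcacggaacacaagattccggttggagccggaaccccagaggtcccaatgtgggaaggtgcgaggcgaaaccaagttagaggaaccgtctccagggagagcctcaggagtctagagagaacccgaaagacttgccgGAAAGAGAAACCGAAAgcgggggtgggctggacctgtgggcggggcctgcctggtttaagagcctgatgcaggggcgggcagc

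Cish held 2 GAS matches beginning 1 and 12 bases into the transcript, counting the table's start as base 1. The Socs3 match, TTCTTAGAA, began at -154. Socs1 held 2 IRF matches that overlap each other, GAAAGAGAAA beginning at -83 and GAAACCGAAA at -77. Over all 32851 promoters of the same length (250 bases before the start and 50 after), 8.3% held the GAS letters and 3.44% held the IRF letters. The Socs4 window held neither. The Socs3 stretch lies upstream of the RefSeq start but within the longer GENCODE gene, outside its annotated UTRs, whereas the Cish window lies in transcribed sequence and was kept to 30 bases. A match is a string of letters and not a measured binding site, and no binding or accessibility was analysed here.

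All 8 genes are described on GRCm38 with GENCODE vM21 models. Socs1 (chr16, 10782240 to 10785536), Socs3 (chr11, 117966079 to 117970047), Socs4 (chr14, 47276931 to 47296102), Socs5 (chr17, 87107679 to 87137839) and Socs6 (chr18) each have their whole coding sequence in 1 exon. Cish (chr9, 107296026 to 107302784) has 3 coding exons, Socs2 (chr10, 95385362 to 95417180) has 2, and Socs7 (chr11, 97362551 to 97398542) has 9. The longest annotated coding stretch per gene runs from 601 bases in Socs2 to 1737 in Socs7. The Socs2 value is not a whole number of codons, so it comes from an incomplete transcript model. Cish shares exonic bases with Gm17040 and Gm17041 on the other strand, neither of which was in the count files.

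Library totals were 59973041 to 69080017 counts in the replicates numbered 1 and 17742158 to 18608805 in those numbered 2. The members' counts ran from 161 (Socs5, Th17 replicate 2) to 45228 (Socs3, Th17 replicate 1). Without molecular identifiers, counting error alone does not cover the duplication of fragments. Values are given as CPM, counts divided by the library total and scaled by TMM factors, and log2 fold changes came from edgeR's quasi-likelihood test over all genes tested. A gene was called higher or lower, and is said to have risen or fallen, at a Benjamini-Hochberg adjusted p under 0.01 with an absolute log2 fold change above 1. For any single value, an exact permutation test of 2 libraries against 2 cannot go below p = 0.333. In bulk RNA, fewer cells of a type and less RNA per cell cannot be told apart.

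CD4 T cell markers were abundant in all 6 libraries, with 6 of 6 above 1 CPM and summed levels of 2142 to 3173 CPM. Markers of other cells differed between groups. The 7 neutrophil markers summed to 2774 to 2875 CPM in Th17, 189 to 310.3 in Naive and 27.4 to 39.3 in Th1. S100a8 led them at 1149 and 1142 CPM in the Th17 libraries, and S100a9, Ngp, Ltf and Camp were also highest in Th17. Mpo went the other way, at 251 and 159 CPM in Naive and 68.1 and 58.7 in Th17. Elane was 57.3 and 29.6 CPM in Naive and 52.5 and 46.9 in Th17. The Naive sum came mostly from Mpo and Elane. The 5 mast cell and basophil markers summed to 198 to 411 CPM in Th17, 8.22 to 38.3 in Naive and 38.4 to 49.0 in Th1. The 6 macrophage and dendritic cell markers reached 16.1 to 56.4 CPM in Th17 and at most 13.3 elsewhere, with C1qa at 0 in both Th1 libraries. The 6 erythroid markers summed to 86.8 to 476 CPM in Naive, mostly from Car1 at 463 and 85.8 CPM, and to at most 1.58 in the cultured cells, with Hba-a1, Hbb-bt and Hbb-b1 listed at 0 throughout. B cell markers summed to 12.1 to 14.4 CPM in Naive, 14.4 to 19.7 in Th17 and 4.43 to 5.29 in Th1. Those of CD8 T and NK cells were 23.7 to 28.5 CPM in Naive, 8.15 to 9.14 in Th17 and 7.46 to 11.4 in Th1. The part of these cells in the values of the SOCS genes was not tested.

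Socs1, Socs2 and Socs3 rose in cultured cells and no member fell. Socs2 and Socs3 rose in Th17, all 3 rose in Th1, and Socs1 alone was called between Th1 and Th17. Thus 2 of 8 members were higher in Th17 than in Naive, where 4.01% of all genes tested were called higher and 5.43% in either direction. In Th1 compared with Naive it was 3 of 8, where 4.64% of all genes were higher and 7.45% called in either direction. In Th1 compared with Th17 it was 1 of 8, where 2.70% were higher and 5.53% called in either direction. None was called lower by edgeR in any comparison, where the share of all genes called lower was 1.43%, 2.81% and 2.83%. At an unadjusted p under 0.05, which 17.2% of all genes passed as higher and 16.1% as lower in Th17 than in Naive, 4 members were higher and 2 lower there. In Th1 compared with Naive 4 were higher and 1 lower, against 15.7% and 14.3% of all genes. In Th1 compared with Th17 4 were higher and 0 lower, against 17.2% and 16.6%. DESeq2, which called more genes throughout, called 3, 4 and 2 members higher and 0 lower in the 3 comparisons. Its shares of all genes were 7.64% higher and 4.76% lower, then 7.93% and 5.85%, then 6.77% and 6.59%. The median log2 fold change over the 8 members was 0.44, 1.01 and 0.43 in these comparisons, beside -0.02, -0.02 and -0.03 over all genes tested. Both comparisons with Naive used the same Naive libraries.

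**Figure D1:**
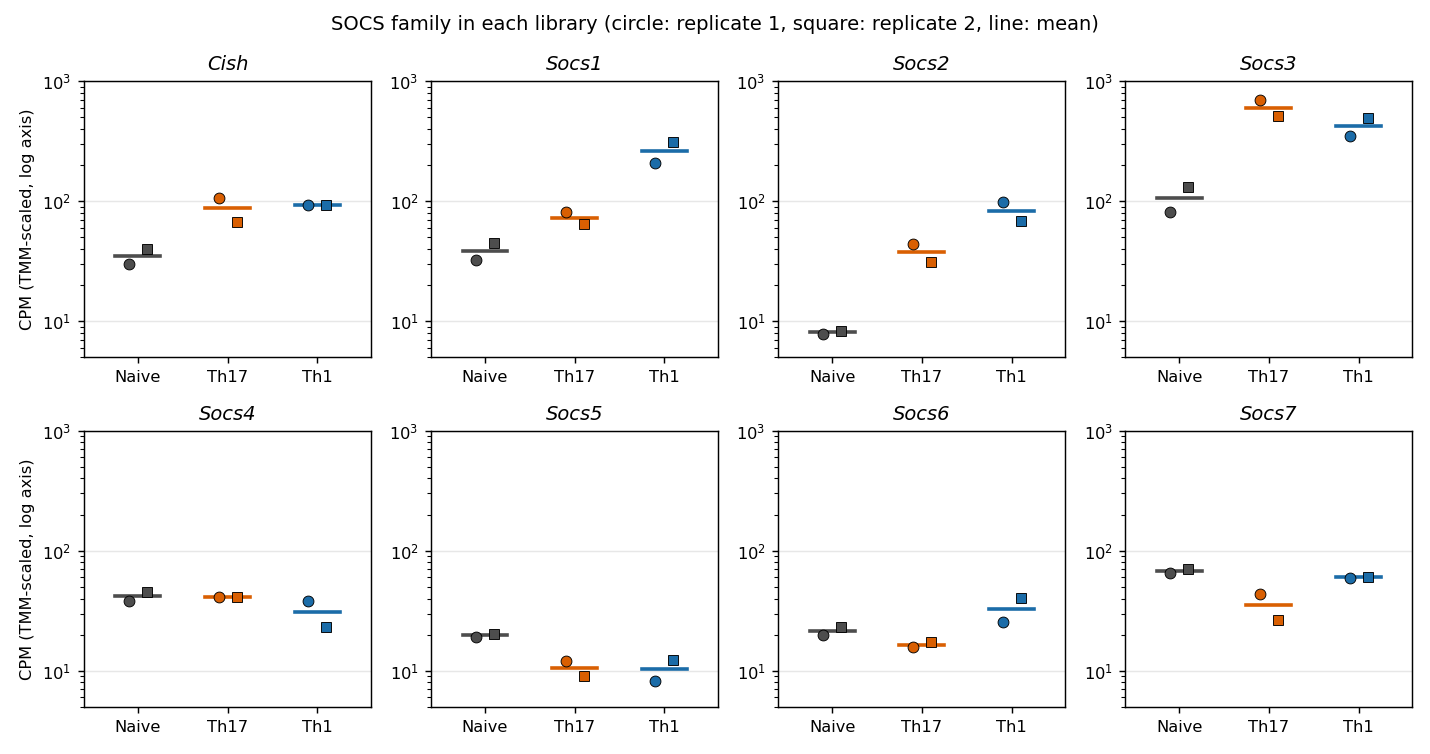
TMM-scaled CPM on a log axis for the 8 SOCS family genes in each library, with Naive in grey, Th17 in orange and Th1 in blue (circle, replicate 1, square, replicate 2, line, group mean, n = 2). Cish, Socs1, Socs2 and Socs3 have both Th17 and both Th1 libraries above both Naive libraries, and Socs4 to Socs7 stay between 8.29 and 70.1 CPM throughout.

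Socs1 encodes the inhibitor that binds and blocks JAK1, JAK2 and TYK2. Its level was 32.3 and 44.9 CPM in the Naive libraries, 80.9 and 64.2 CPM in Th17, and 209 and 312 CPM in Th1. The 3 groups did not overlap, and the lower Th1 library was above every other library by more than the spread within Naive or Th17. Socs1 rose 6.75-fold in Th1 over Naive (log2 fold change 2.75, SE 0.32, edgeR adjusted p = 5.1e-04, n = 2 per group). The difference between Th17 and Naive was not called, at a log2 fold change of 0.91 with a 95% interval of 0.23 to 1.59 (edgeR adjusted p = 0.0684). Set directly against Th17, Th1 was 3.58-fold higher (log2 fold change 1.84, SE 0.31, interval 1.15 to 2.53, edgeR adjusted p = 0.0045), so the difference between the 2 Th groups was itself past the threshold. This call was lost without either Th17 library (adjusted p = 0.0266 without replicate 1 and 0.0480 without replicate 2) and without Th1 replicate 2 (0.0242), with log2 fold changes of 1.54 to 2.01 in those fits. Tested against a fold change of 2 (adjusted p = 0.0465), or with no scaling beyond library size (0.0131), it was lost too.

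Socs3 encodes the other member with a kinase inhibitory region, which docks on gp130 beside the bound JAK. Its level was 81.5 and 131 CPM in Naive, 692 and 510.3 CPM in the Th17 libraries and 349 and 495 CPM in Th1. Every cultured library held more Socs3 than either Naive library, and both Th17 libraries lay above both Th1 libraries, though the second Th17 library was close to the second Th1 library. Socs3 rose 5.66-fold in Th17 (log2 fold change 2.50, SE 0.36, edgeR adjusted p = 0.00178). It rose 3.97-fold in Th1 (log2 fold change 1.99, SE 0.35, edgeR adjusted p = 0.0043). Between Th1 and Th17 the log2 fold change was -0.51 with an interval of -1.26 to 0.24 (edgeR adjusted p = 0.310), so a difference in either direction was not resolved with 2 libraries a group. Without Naive replicate 1 neither rise was called (adjusted p = 0.0116 in Th17 and 0.0295 in Th1), nor was the Th17 rise without Th17 replicate 1 (0.0118) or the Th1 rise without Th1 replicate 2 (0.0216). With no scaling beyond library size (adjusted p = 0.0133), or against a fold change of 2 (0.0313), the Th1 rise was also not called. The summed neutrophil and mast cell markers given above were highest in Th17, the group where Socs3 was highest, though Mpo was highest in Naive. Within Th17, Socs3 was higher in replicate 1 and every mast cell marker in replicate 2, while the neutrophil markers went both ways. The part of these cells in the level of Socs3 was not tested.

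Socs2 encodes a substrate receptor best known for damping growth hormone receptor signalling. It stood at 7.79 and 8.32 CPM in Naive, the lowest values of any member in that group. In Th17 the libraries gave 43.9 and 31.2 CPM, and in Th1 97.5 and 67.6 CPM. The groups were ordered Naive, Th17, Th1 with no overlap. Socs2 rose 10.3-fold in Th1 (log2 fold change 3.36, SE 0.33, edgeR adjusted p = 2.2e-04), the largest change of any member in any of the 3 comparisons. In Th17 its log2 fold change was 2.22 (SE 0.31, edgeR adjusted p = 0.00176), a call lost without Naive replicate 1 (adjusted p = 0.0116) or Th17 replicate 1 (0.0144) and against a fold change of 2 (0.0109). Between the Th groups, Socs2 had a log2 fold change of 1.14 with an interval of 0.46 to 1.81 and was not called by edgeR (adjusted p = 0.0319), whereas DESeq2 called it (adjusted p = 0.00495).

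Cish encodes CIS, the founding member of the family, which binds the IL-2 receptor β chain and growth factor receptors. Its level was 30.2 and 39.7 CPM in Naive, 107 and 66.9 CPM in the Th17 libraries and 92.0 and 93.0 CPM in Th1. Both Th groups lay above Naive, and the Th1 libraries fell between the Th17 libraries. The log2 fold changes over Naive were 1.32 in Th17 (SE 0.30, edgeR adjusted p = 0.0179) and 1.41 in Th1 (SE 0.30, edgeR adjusted p = 0.0114). Neither passed the threshold of edgeR, while DESeq2 called both (adjusted p = 0.00120 and 3.6e-04). Between Th1 and Th17 the log2 fold change was 0.09 with an interval of -0.57 to 0.74 (edgeR adjusted p = 0.855). With no scaling beyond library size it was -0.14, so no direction between the Th groups can be read for Cish.

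The remaining members, Socs4, Socs5, Socs6 and Socs7, have long N-terminal regions and are studied mostly for receptor tyrosine kinase and insulin receptor signalling. None was called in any comparison. Socs4 was 38.3 and 45.0 CPM in Naive, 41.0 and 40.9 CPM in the Th17 libraries and 38.4 and 23.1 CPM in Th1. Its Th17 libraries lay within the range of Naive, and its log2 fold change there was -0.02 (interval -0.71 to 0.66, edgeR adjusted p = 0.965). The lower Th1 library set it apart from Naive only in part, with a log2 fold change of -0.43 (edgeR adjusted p = 0.395).

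Socs5, reported to act on the IL-4 and epidermal growth factor receptors, was 19.1 and 20.3 CPM in Naive, 11.98 and 9.11 CPM in the Th17 libraries and 8.29 and 12.3 CPM in Th1. Both cultured groups lay below Naive and overlapped each other. Its log2 fold changes from Naive were -0.90 in Th17 (edgeR adjusted p = 0.101) and -0.94 in Th1 (edgeR adjusted p = 0.0963). Socs6, which binds the KIT receptor, was 19.8 and 23.2 CPM in Naive, 15.8 and 17.3 CPM in the Th17 libraries and 25.3 and 40.7 CPM in Th1. Its groups were ordered Th17, Naive, Th1 without overlap, and the Th1 over Th17 log2 fold change was 0.99 (interval 0.27 to 1.71, edgeR adjusted p = 0.0620). Socs7, which binds insulin receptor substrates, was 65.1 and 70.1 CPM in Naive, 43.8 and 26.6 CPM in the Th17 libraries and 59.8 and 60.2 CPM in Th1. Its Th17 libraries were the lowest and the farthest apart, with a log2 fold change from Naive of -0.94 (interval -1.59 to -0.28, edgeR adjusted p = 0.0567).

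**Figure D2:**
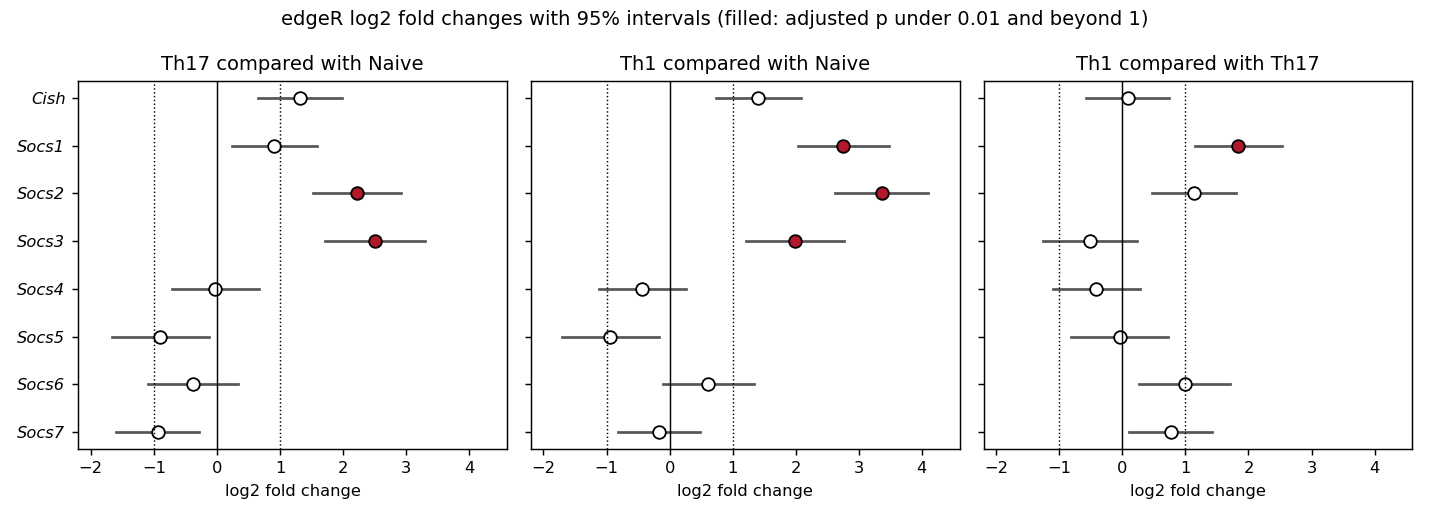
Log2 fold changes (horizontal axis) of the 8 SOCS family genes in each of the 3 comparisons, from edgeR, with 95% intervals, filled where called, dotted lines at the threshold of 1. Socs2 and Socs3 are filled for Th17, Socs1, Socs2 and Socs3 for Th1 over Naive, and Socs1 alone at 1.84 for Th1 over Th17.

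Libraries of the 2 groups did not overlap for 7 of 8 members between Th17 and Naive, 7 of 8 between Th1 and Naive and 6 of 8 between Th1 and Th17. The share of all genes tested without overlap was 65.5%, 56.0% and 66.6%, so with 2 libraries a group this count sets the members little apart from other genes.

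To compare members with each other, CPM were divided by the length of the longest GENCODE transcript in kilobases. On this per-length scale Socs3 was first and Socs1 second in all 3 cell types, an order that turned in Th1 (Socs1 194 and Socs3 146 CPM per kilobase) when exons were confined to the RefSeq gene span. The Naive means were 41.6 CPM per kilobase for Socs3, 13.3 for Socs1, 9.63 for Socs7, 7.44 for Cish, 6.06 for Socs4, 4.24 for Socs5, 3.56 for Socs6 and 1.90 for Socs2. Only the libraries of Cish and Socs4 overlapped among neighbours in this order. In Th17 the order was Socs3 at 235.6 CPM per kilobase, Socs1 at 24.9, Cish at 18.5, Socs2 at 8.85, Socs4 at 5.96, Socs7 at 5.02, Socs6 at 2.74 and Socs5 at 2.27, with overlap between Socs1 and Cish and between Socs4 and Socs7. In Th1 it was Socs3 at 165 CPM per kilobase, Socs1 at 89.5, Cish at 19.7, Socs2 at 19.5, Socs7 at 8.56, Socs6 at 5.46, Socs4 at 4.47 and Socs5 at 2.22, with overlap between Cish and Socs2 and between Socs6 and Socs4. Socs2, the last in Naive, was thus the fourth in both Th groups with these lengths. With all exons merged its mean in Th17 was 3.94 CPM per kilobase, below Socs4 at 5.96 and Socs7 at 4.84, because the merged exons of Socs2 are 9531 bases long against 4242 for its longest transcript.

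The summed per-length level of the family was 73.5 and 102 CPM per kilobase in Naive, 349.6 and 258 in the Th17 libraries and 271 and 358 in Th1. Both Th groups lay above Naive and overlapped each other. Cish, Socs1, Socs2 and Socs3 together made up 69.8% and 75.7% of that sum in the Naive libraries, 95.02% and 94.4% in the Th17 libraries and 92.6% and 94.0% in Th1. Socs3 took 46.9% ± 4.88 of the family sum in Naive, 77.5% ± 0.0965 in Th17 and 52.3% ± 2.62 in Th1 (SD, n = 2). Socs1 took 15.1% ± 0.0327, 8.25% ± 0.413 and 28.2% ± 2.45 in the same order. These shares depend on the length used. With exons confined to the RefSeq gene span, Socs1 took 30.5%, 18.4% and 50.2%, and Socs3 38.4%, 70.1% and 37.9%, so Socs1 was again widest in Th1 and narrowest in Th17 but passed Socs3 in Th1. Shares in a sum move against each other, so a higher share of one member lowers the others.

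**Figure D3:**
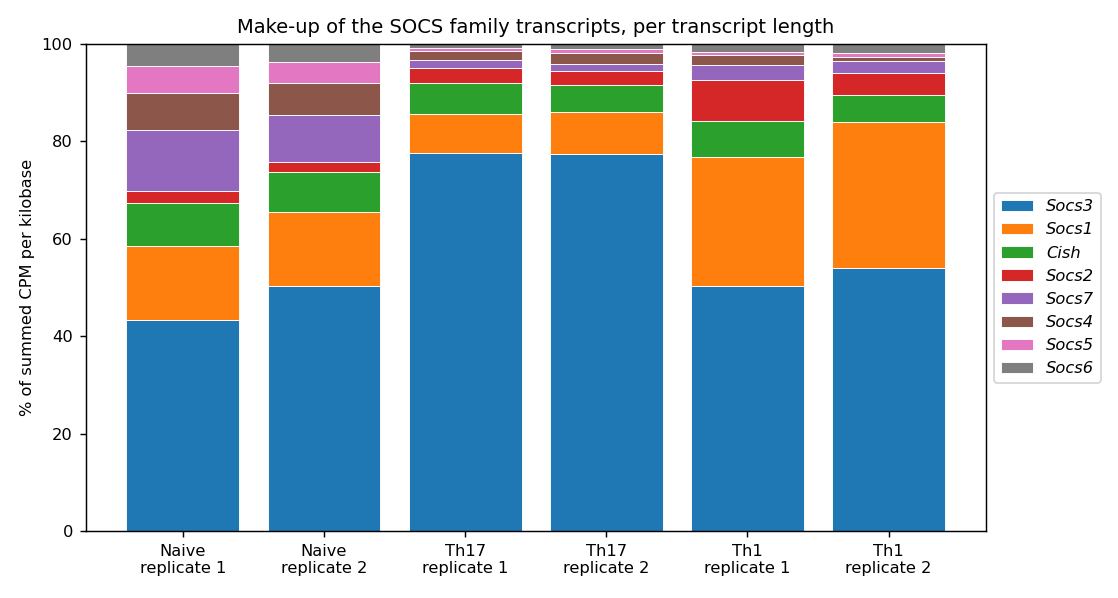
Stacked bars of each member's percentage of the family's summed CPM per kilobase, 1 bar per library. Lengths are those of the longest GENCODE transcripts. With these the Socs3 segment is largest in every bar and reaches 77.5% in Th17, and the Socs1 segment is widest in Th1 at 28.2% and narrowest in Th17 at 8.25% (means of 2).

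The ratio of Socs3 to Socs1 on the per-length scale was 2.88 and 3.32 in the Naive libraries, 9.74 and 9.06 in the Th17 libraries and 1.91 and 1.81 in Th1. The 3 groups did not overlap, and replicates lay closer to each other than to any library of another group. The mean log2 ratio was 1.63 ± 0.15 in Naive, 3.23 ± 0.07 in Th17 and 0.89 ± 0.05 in Th1 (SD, n = 2). Th17 therefore differed from Th1 by 2.34 on the log2 scale, a ratio 5.06 times as high, and from Naive by 1.60, or 3.04 times. Because both genes are read from the same library, depth and TMM factors cancel in this ratio, and the transcript length cancels in its difference between libraries. The ratio itself depends on the length chosen for Socs1. GENCODE gives 2908 bases and the RefSeq gene span leaves 1340, and with the shorter length the ratio in Th1 was 0.775 and 0.736, which put Socs1 above Socs3 there.

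The signalling machinery around the SOCS genes was described with 10 lists holding 122 genes, of which 105 were tested. Over all lists 17 genes rose and 4 fell in Th17 compared with Naive, 24 rose and 6 fell in Th1, and 15 were higher and 10 lower in Th1 than in Th17. Of all genes tested, 4.01% rose and 1.43% fell in Th17, 4.64% and 2.81% in Th1, and 2.70% were higher and 2.83% lower in Th1 than in Th17. At an unadjusted p under 0.05, 14.3% to 17.2% of all genes passed in each direction of each comparison, and DESeq2 called 4.76% to 7.93%. List counts near these shares set a list little apart from other genes. The median log2 fold changes over the lists were 0.21, 0.54 and 0.36, beside -0.02, -0.02 and -0.03 over all genes tested. Most of the calls lay in cytokines, receptor chains and STAT target genes and few in the kinases and other inhibitors.

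Of 18 cytokines that signal through JAKs, 15 were tested, and 10 rose in Th17 and 7 rose in Th1 over Naive. None fell in either by edgeR or DESeq2, and at an unadjusted p under 0.05 the counts lower were 0 in Th17 and 1 in Th1. Several of the 15 were near 0 in Naive and passed the filter on low counts only through cultured libraries. Their Naive means were 0 CPM for Il5, 0.0073 for Il24, 0.0147 for Il6, 0.189 for Il13 and Csf2 and 0.236 for Il22. Such genes had little room to be called lower, and all but Il5 are among the 10 that rose in Th17. In Th1 compared with Th17, 3 were higher and 5 lower. Over these 15 genes the median log2 fold change was 3.75 in Th17 and 2.95 in Th1. Both medians include the genes near 0 in Naive, which entered only through cultured libraries. Ifng, the Th1 signature cytokine, was 4.55 and 4.56 CPM in Naive, 64.6 and 48.7 in the Th17 libraries and 177 and 157 in Th1 (log2 fold change 3.64 in Th17 and 5.19 in Th1). Lif, a gp130 cytokine, was 2.26 and 1.93 CPM in Naive, 32.1 and 24.6 in the Th17 libraries and 112 and 56.7 in Th1. Il21, whose receptor uses JAK1 and JAK3, reached 35.5 and 48.7 CPM in Th17 from 1.75 and 1.73 in Naive (log2 fold change 4.59). Il10 reached 26.2 and 16.1 CPM in Th1 from 0.235 and 0.347 in Naive (6.25), and Osm, another gp130 cytokine, was higher in Th1 than in Th17 (1.98). Il4 was lower in Th1 than in Th17 (-2.71), though it did not exceed 4.24 CPM in any library.

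Among 25 receptor chains tested of 28, 3 rose and 2 fell in Th17, 7 rose and 5 fell in Th1, and 4 were higher and 3 lower in Th1 than in Th17. Il2ra, the IL-2 receptor α chain, was 42.3 and 71.8 CPM in Naive, 493 and 302 in the Th17 libraries and 1035 and 831 in Th1 (log2 fold change 2.80 in Th17 and 4.03 in Th1). Il2rb, the β chain that CIS binds, was 198 and 255 CPM in Naive, 210 and 114 in the Th17 libraries and 1506 and 2208 in Th1 (3.52 over Th17). Il12rb2, the inducible IL-12 receptor chain, was 3.82 and 3.76 CPM in Naive, 11.1 and 6.68 in the Th17 libraries and 338 and 281 in Th1 (6.35 over Naive). Ifngr2, a chain of the interferon-γ receptor, was 35.8 and 43.1 CPM in Th17 but 2.599 and 7.21 in Th1 (-3.05). Ifngr1, the other chain, was named after its values were seen. Its mean was 124 CPM in Naive, 313 in Th17 and 762 in Th1. Ifngr1 rose in Th1 over Naive (2.62, edgeR adjusted p = 9.3e-04) and was not called between Th1 and Th17 (1.28, edgeR adjusted p = 0.0270). Il6st, which encodes gp130, was named after its values were seen. Its mean was 203 CPM in Naive cells, 81.0 in Th17 and 606 in Th1, and Th1 exceeded Th17 by a log2 fold change of 2.90 (edgeR adjusted p = 6.1e-04). Il6ra, the IL-6 receptor α chain, was also named after its values were seen. Its mean was 265 CPM in Naive, 123 in Th17 and 65.2 in Th1. Il6ra fell in Th1 compared with Naive (log2 fold change -2.02, edgeR adjusted p = 0.0043) and was not called between Th1 and Th17. Csf2rb rose in Th17 (3.69) and Epor fell in both Th groups (-4.37 and -5.50). Csf2rb is a chain of myeloid and mast cell receptors and Epor is the erythropoietin receptor. Epor stood at 63.4 CPM in Naive replicate 1 and 7.38 in replicate 2, the library order in which the erythroid marker Car1 also stood. The summed levels of the neutrophil, mast cell and macrophage markers were highest in Th17. The part of those cells was not tested.

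The 4 JAK kinases gave 0 calls by edgeR in every comparison. At an unadjusted p under 0.05, 2 were lower in Th17 than in Naive, 1 was higher in Th1 than in Naive and 1 was higher in Th1 than in Th17, while DESeq2 called 1 lower in the first comparison and 0 in the others. Among the STATs, Stat4, which transmits the IL-12 signal, rose in Th1. It was 46.9 and 64.7 CPM in Naive, 67.8 and 64.8 in the Th17 libraries and 121 and 159 in Th1 (log2 fold change 1.33 over Naive, edgeR adjusted p = 0.00998, just inside the threshold).

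Among 11 other inhibitors of JAK-STAT signalling (PIAS proteins, phosphatases, LNK and USP18), 1 fell in Th17 and 1 was higher in Th1 than in Th17. Both calls were Usp18, an interferon-induced brake on the type I interferon receptor. It was 17.8 and 14.1 CPM in Naive, 1.76 and 2.55 in the Th17 libraries and 44.6 and 13.4 in Th1 (log2 fold change -2.91 in Th17 and 3.78 between Th1 and Th17). Its Th1 libraries differed from each other more than its Naive libraries did, and one of them lay below both Naive libraries. In Th1 compared with Naive edgeR called 0 of the 11, DESeq2 called 1 higher, and at an unadjusted p under 0.05 the counts were 1 higher and 1 lower. A further list held 7 genes linked to the ligase that the SOCS box recruits, among them Cul2, which encodes a cullin other than Cullin-5. Ube2f, which charges Cullin-5 with NEDD8 and is not itself a subunit, rose in Th1 (1.42) and was the single call. The median log2 fold change of the 7 genes was 0.77 in Th17, 0.30 in Th1 and -0.53 between Th1 and Th17. In the first and last of these edgeR called 0. At an unadjusted p under 0.05, 4 were higher in the first and 3 lower in the last. DESeq2 called 1 higher in the first and 0 in the last. Among 16 tested of 27 other SOCS-box proteins, 1 rose and 1 fell in Th1 and 0 were called in Th17, where DESeq2 also called 0 and 2 were lower at an unadjusted p under 0.05. The gene that fell was Spsb1, whose product targets nitric oxide synthase, at 12.3 and 25.7 CPM in Naive, 19.6 and 15.2 in the Th17 libraries and 0.572 and 0.885 in Th1 (log2 fold change -4.76 against Naive and -4.64 against Th17).

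**Figure D4:**
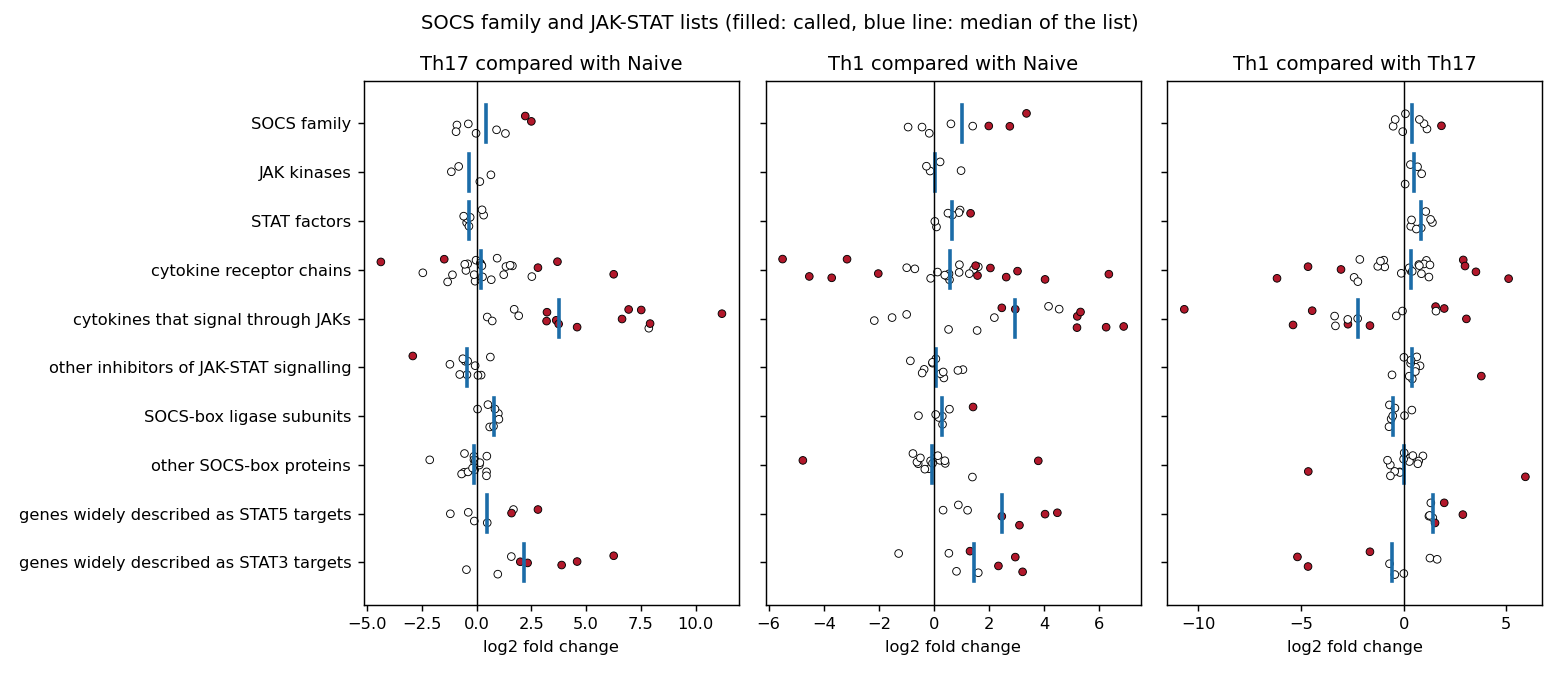
Log2 fold changes (horizontal axes, scaled separately) of the SOCS family and 9 JAK-STAT lists in the 3 comparisons, 1 point per gene tested, filled where called, blue line at the median of the list. Filled points lie mostly among cytokines, receptor chains and STAT targets, and the cytokine medians are 3.75 in Th17 and 2.95 in Th1 over Naive. These medians include cytokines near 0 in Naive that passed the filter on low counts only through cultured libraries.

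Genes widely described as targets of STAT5 and STAT3 were also followed, since SOCS genes are induced by the same factors. Of 7 STAT5 targets, 2 rose in Th17, 4 rose in Th1 and 3 were higher in Th1 than in Th17. None was called lower by edgeR. DESeq2 called 3, 5 and 7 higher and called 1 lower, in Th17. At an unadjusted p under 0.05, 1 was lower in Th17 and 0 in the other comparisons. Pim2, a survival kinase, was 36.1 and 49.6 CPM in Naive, 131 and 128 in the Th17 libraries and 884 and 1026 in Th1 (log2 fold change 1.60 in Th17 and 4.48 in Th1). Pim1 rose in Th1 (3.10), and Ccnd2, a D-type cyclin, was higher in Th1 than in Th17 (1.53).

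Of 8 STAT3 targets, 5 rose in Th17 and 4 in Th1, and 0 were higher and 3 lower in Th1 than in Th17, where 2 were higher at an unadjusted p under 0.05 and DESeq2 called 1. Bcl3 rose in both Th groups (2.33 and 2.34) and Fosl2 rose in Th1 (3.22).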

How the data were processed

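RNA-Seq counts per gene were deposited by the authors as 1 table per library, raw and not normalized. Per the labels and the study's methods, poly(A) RNA was reverse transcribed by Smart-seq2, sequenced as paired ends, aligned to mm10 with HISAT2 2.2.1 and counted with HTSeq 0.13.5, and the replicates are described as independent. StringTie 2.1.7 and DESeq2 1.34.0 are also named in the submitters' processing notes. Whether duplicates were removed and counting used strand is described differently in different places of the study's own account, which bears on highly expressed genes and on Cish, which has antisense neighbours.

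Counts were tested here with edgeR 4.0.16 (R 4.3.3), using TMM factors, filterByExpr by cell type and glmQLFTest with cell type as the only term over all 6 libraries. Standard errors are the log2 fold change over the square root of F. The thresholds, adjusted p under 0.01 and absolute log2 fold change above 1, are those of the study. Of 24223 genes, 6377 had no count and 13607 were tested. Total counts ranged from 17742158 to 69080017 per library, with replicate 1 the deeper in each group. Alternatives were DESeq2 1.42.0, other scalings, filters and thresholds, a replicate block, thinning to the smallest library, leaving out each library, and other gene lengths. The fits were tested on simulated counts with known fold changes.

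The members, the 10 pathway lists and the 7 marker lists were chosen with earlier results of these data known, so no list is independent evidence of its direction. All 8 members are named. From each list and comparison at most 3 genes were named by rule, the called genes of largest absolute log2 fold change, each above 3 counts in all libraries. Apart from these, Il6st, Il6ra and Ifngr1 were added after their values were seen, and Cul2 was named without values. For Cish, Socs1, Socs2 and Socs3 the 3 genes nearest in Euclidean distance of centred log2 CPM (prior count 2) were named. Promoters came from RefSeq and gene models from GENCODE vM21, matched by symbol. Protein sequences were not used here. Parts of the pathway lists are not reported here, though their genes are in the counts over all lists.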

Additional observations from a re-analysis of the deposited data

Results flagged for a closer look

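Socs1 differed between the Th groups in its change from Naive. Its log2 fold change was 2.75 for Th1 and 0.91 for Th17, and the test of their difference, which is the Th1 over Th17 comparison because both use the same Naive libraries, gave 1.84 (SE 0.31, edgeR adjusted p = 0.0045, n = 2 per group). Both Th1 libraries (209 and 312 CPM) were above both Th17 libraries (80.9 and 64.2 CPM). The part of the neutrophil and mast cell RNA in the Th17 libraries in this difference was not tested.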

How the results depend on the processing

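Of 408 alternative values for the members' log2 fold changes, 372 kept their direction and side of the threshold, 14 lost a call, 14 gained one and 8 changed sign. Socs1 and Socs2 in Th1 over Naive were called in every alternative run, at 2.44 to 3.05 and 3.11 to 3.60 without 1 library. Having 2 replicates a group limits every call, as the ranges without 1 library show, and the cause of the changes was not tested.

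Against a fold change of 2, calls were lost for Socs2 in Th17 (2.22) and Socs3 in Th1 (1.99) over Naive and for Socs1 between Th1 and Th17 (1.84). Scaling by library size alone, which moved the median of all genes by -0.25 in Th1 over Naive and -0.21 in Th1 over Th17, lost Socs3 in Th1 (1.73) and Socs1 (1.61), and Cish between Th1 and Th17 turned to -0.14. DESeq2 called Cish in Th17 (1.32) and Th1 (1.42) over Naive and Socs2 between Th1 and Th17 (1.14), as did the fit with no filter on low counts (1.31, 1.42 and 1.16) and an adjusted p under 0.05 (1.32, 1.41 and 1.14). Socs4 in Th17 over Naive turned to 0.027 with at least 10 counts in every library and 0.019 with only the 4 libraries compared.

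Without 1 library, ranges over Naive in Th17 were 1.96 to 2.44 for Socs2, 2.2 to 2.87 for Socs3 and -0.14 to 0.085 for Socs4, where the sign changed without Naive replicate 2 (0.085) and Th1 replicate 1 (0.021). In Th1 over Naive they were 1.22 to 1.62 for Cish, called without Th17 replicate 2, and 1.68 to 2.37 for Socs3. Between Th1 and Th17 they were -0.20 to 0.46 for Cish (-0.20 without Th17 replicate 2), 1.54 to 2.10 for Socs1 and -0.34 to 0.22 for Socs5 (0.17 without Th17 replicate 1 and 0.22 without Th1 replicate 1).

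The number of members higher in Th17 than in Naive was 1 against a fold change of 2 and 0 to 2 without 1 library, and in Th1 over Naive 2 to 4 without 1 library. Between Th1 and Th17 it was 2 with DESeq2, with no filter and at an adjusted p under 0.05, and 0 with library size alone, against a fold change of 2, and in 3 of the fits without 1 library (0 to 1). All genes called higher there numbered 367 in the reported fit, 927 with DESeq2, 1188 with no filter, 1036 at an adjusted p under 0.05, 202 with library size alone and 154 against a fold change of 2, so the members' counts moved with those of all genes.

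Of the pathway genes, those higher in Th17 than in Naive numbered 26 with DESeq2, 9 with at least 10 counts in every library, 27 at an adjusted p under 0.05 and 12 to 18 without 1 library. Those lower numbered 11 with DESeq2, 0 with library size alone, 12 with no filter, 0 with at least 10 counts, 11 at an adjusted p under 0.05, 0 against a fold change of 2 and 0 to 4 without 1 library. In Th1 over Naive, 15 were higher with library size alone, 14 against a fold change of 2 and 14 to 21 without 1 library, and 3 to 6 were lower without 1 library. In Th1 over Th17, 26 were higher with DESeq2, 29 with no filter, 26 at an adjusted p under 0.05 and 7 to 16 without 1 library, and 4 were lower with at least 10 counts and 5 to 11 without 1 library.

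With the replicate number as a block, edgeR called Cish in Th1 over Naive (1.40, adjusted p = 0.00806), and DESeq2 called Cish in Th17 (1.31) and Th1 (1.41) and Socs2 between Th1 and Th17 (1.13). With DESeq2 and the block, members higher in Th1 than in Th17 numbered 2, pathway genes lower in Th17 than in Naive 9 and those higher in Th1 than in Th17 25. Deviations of same-numbered libraries correlated at -0.23, 0.17 and 0.08 between groups over 13607 genes, and the reported fit used no block. Same-numbered libraries were also alike in depth, with replicate 1 the deeper in each group. Whether they share anything more was not tested.

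With exon unions as lengths, the log2 ratio of Socs3 to Socs1 was 1.34 and 1.55 in Naive, 3.10 and 3.0 in the Th17 libraries and 0.75 and 0.68 in Th1, the Socs1 share 17.3%, 9.49% and 32.2%, and the Socs3 share in Th17 78.7%. With exons inside the RefSeq gene span, chosen after seeing the data, the ratio was 0.23 and 0.43, 1.99 and 1.88, and -0.37 and -0.44, the Socs1 share 30.5%, 18.4% and 50.2%, and the Socs3 share 38.4%, 70.1% and 37.9% in Naive, Th17 and Th1.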

Other observations

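The genes whose pattern over the 6 libraries lay nearest to each cytokine-responsive member were named by a rule that compares log2 levels centred on their mean. Nearest to Cish were Crmp1 at a Euclidean distance of 0.27, Gapdhs at 0.33 and Inca1 at 0.35. Crmp1 was 16.6 and 21.8 CPM in Naive, 55.9 and 40.4 in the Th17 libraries and 60.1 and 49.8 in Th1. Nearest to Socs1 were Lrrtm2 at 0.34, Farp1 at 0.34 and Slc2a1, a glucose transporter, at 0.39. Slc2a1 was 43.8 and 50.4 CPM in Naive, 112 and 82.6 in the Th17 libraries and 305 and 336 in Th1. Nearest to Socs2 were Ninj2 at 0.47, Hif1a, a hypoxia-responsive transcription factor, at 0.50, and Cysltr2 at 0.56. Hif1a was 92.7 and 126 CPM in Naive, 518 and 496 in the Th17 libraries and 1143 and 1073 in Th1. Nearest to Socs3 were Rragd at 0.47, Dennd2a at 0.48 and Ndrg4 at 0.56. Rragd was 3.54 and 4.80 CPM in Naive, 22.0 and 20.8 in the Th17 libraries and 13.1 and 14.7 in Th1. Inca1, Lrrtm2 and Dennd2a did not exceed 1.33 CPM in any library. The likeness rests on 6 libraries in 3 groups and is a description.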
